A study of Arabidopsis thaliana with 6 samples.

Results

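The 43 genes described here encode the histones of Arabidopsis thaliana: H4, the replicative H3.1, the variants H3.3 and CENH3, canonical H2A and its variants H2A.X, H2A.W and H2A.Z, H2B, and the linker histone H1. They were picked out by gene identifier, as the histone genes, from a table of 33557 genes, of which the authors marked 22303 as tested. All 43 were among the tested genes. The data come from 3 libraries of cbe1 mutant seedlings and 3 libraries of Col0 seedlings, Col0 being the wild-type accession. Both genotypes were whole seedlings 7 days old, raised on plates with 1% sucrose and a daily cycle of 16 hours of light and 8 hours of dark. Poly(A) RNA was sequenced. The series' design calls the libraries biological replicates. The kind of mutation in cbe1 is not stated in the sources used here.

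Histones package DNA into nucleosomes, in which a core of H2A, H2B, H3 and H4 is wrapped by DNA and H1 sits at the linker. Replicative histones are made mainly in S phase and loaded behind the replication fork, whereas variants such as H3.3 and H2A.Z are loaded through the cell cycle and mark particular parts of the genome. Plant histone transcripts, including the replicative ones, carry poly(A) tails, so they are captured in poly(A) libraries.

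Levels are the authors' FPKM values (fragment counts divided by the length of the transcript and by the size of the library), 1 value per gene and genotype. They are scaled to length and can be set side by side between genes. No value per library was used here, because the file holds only group values, so the spread between replicates enters through the authors' test alone and the depth of the libraries is unknown. The standard error (SE) given with a log2 fold change is the one implied by the deposited statistic. A gene was called when the authors had tested it and its q-value in the authors' deposited table was below 0.05.

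The CBE1 transcript (AT4G01290, chr4:537990-543869, TAIR10), whose product binds eIF4E, the translation factor that recognises the mRNA cap, was at 4.48 FPKM in cbe1 and 13.8 FPKM in Col0. Its log2 fold change was -1.62 ± 0.20 (SE), with a q of 1.41e-12 per the authors' deposited table. The 4 leaf photosynthesis markers summed to 17193 FPKM in cbe1 and 15475 FPKM in Col0, and the 6 root markers to 1631 FPKM in cbe1 and 2474 FPKM in Col0, so transcripts of both organs were present in these whole seedlings. The root sum was carried by PYK10, a beta-glucosidase of endoplasmic reticulum bodies, at 1583 FPKM in cbe1 and 2440 FPKM in Col0. The other 5 root markers had higher values in cbe1, such as the Casparian strip gene CASP1 at 29.8 FPKM in cbe1 and 19.4 FPKM in Col0, and the median log2 fold change of the 6 was 0.49. None of the 10 organ markers was called. The median tested gene with a mean of at least 1 FPKM was itself higher in cbe1, by 0.17 on the log2 scale (1.13-fold, 18727 genes), and this shift is set beside the histone values below.

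Most histone genes had slightly higher values in cbe1, and a minority passed the test. Of the 43 genes, 7 were called higher (16.3%), against 3.31% of all tested genes and 3.88% of those with a mean of at least 1 FPKM. None was called lower, against 1.63% of all tested genes. The median SE was 0.19 over the 43 and 0.27 over all tested genes, so an equal change was more readily called in the histone genes. At an unadjusted p below 0.05 the counts were 22 higher, where the share of all tested genes was 12.5%, and 0 lower, where it was 4.20%. The log2 fold change was above 0 in 41 of the 43, where 68.9% of all tested genes were, and above the 0.17 of the median gene in 39, where 50.4% of all tested genes were. The median over the 43 was 0.42, which is 0.25 above the shift of the median gene. Summed over all 43, histone transcripts came to 3876 FPKM in cbe1 and 2874 FPKM in Col0, a ratio of 1.35. In the same libraries, 12 S phase markers had a median log2 fold change of 0.58 and 16 markers of G2 and M phase one of 1.16, and their part in the histone values was not tested.

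The size of the changes was bounded for most genes. The 95% interval of the log2 fold change lay wholly below 1, a doubling, in 31 of the 43 genes. The 39 genes with a mean of at least 10 FPKM had a smallest change that would have been called of 0.53 to 1.07 on the log2 scale, with a median of 0.57. Rises of the size of the median over the 43 genes, 0.42, were thus below what the test could call. A further 6 genes had a q-value from 0.05 to 0.1 in the authors' deposited table. After the statistic was recentred on the median gene, 3 histone genes were still called higher, against 1.33% of all tested genes, and none lower, against 2.99%. The 3 were AT1G09200, HTA6 and HTB2. The other 4 calls ended there, with recentred q-values of 0.0507 (AT1G06760), 0.054 (AT5G65360), 0.249 (AT5G10400) and 0.262 (AT5G59970).

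**Figure D1:**
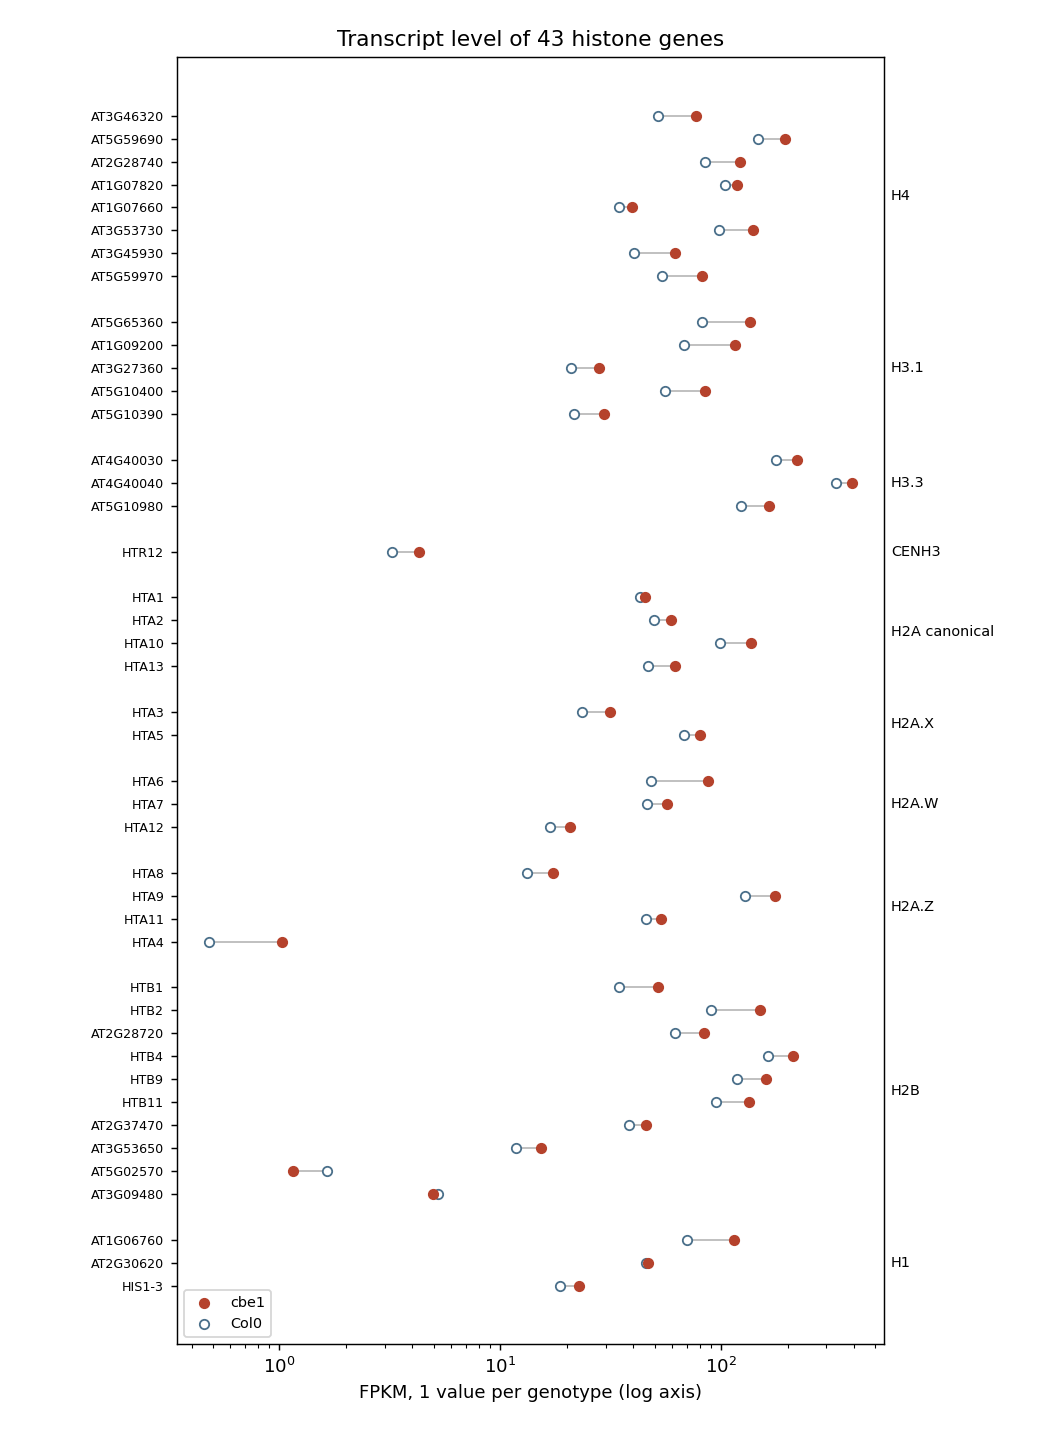
Transcript level of the 43 histone genes, in FPKM on a log axis, with 1 point for cbe1 (filled) and 1 for Col0 (open) joined by a line, grouped by class. The point for cbe1 lies to the right of that for Col0 in every gene except the H2B genes AT5G02570 and AT3G09480, and levels range from 1.02 FPKM in cbe1 and 0.48 FPKM in Col0 (HTA4) to 391 FPKM in cbe1 and 329.7 FPKM in Col0 (AT4G40040).

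The 5 H3.1 genes held 3 of the 7 called rises, where 3.31% of all tested genes were called higher. H3.1 is the replicative H3, loaded on new DNA by the chromatin assembly factor CAF-1. All 5 encode the same protein of 136 residues, from coding sequences that are 80.3% to 89.5% identical, and they share at most 1.36% of their 50-base words with another histone gene. AT1G09200 was at 116 FPKM in cbe1 and 67.6 FPKM in Col0, a log2 fold change of 0.78 ± 0.18 (SE) with q = 0.00169 in the authors' deposited table. AT5G65360 was at 135 FPKM in cbe1 and 82.3 FPKM in Col0, a change of 0.71 ± 0.18 with q = 0.00331 in that deposited table. AT5G10400 was at 84.5 FPKM in cbe1 and 55.8 FPKM in Col0, a change of 0.60 ± 0.19 with q = 0.0336 there. These were also the 3 most abundant H3.1 genes.

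The remaining H3.1 genes were less abundant and were not called. AT5G10390, which lies 577 bases from AT5G10400 and encodes the same protein, had 29.4 FPKM in cbe1 and 21.5 FPKM in Col0, a log2 fold change of 0.45 ± 0.22. AT3G27360 had 28.0 FPKM in cbe1 and 20.8 FPKM in Col0, a change of 0.43 ± 0.34, and shares its locus in the deposited table with AT3G27380 (18.2 FPKM in cbe1 and 15.7 FPKM in Col0). Their 95% intervals, 0.02 to 0.88 and -0.23 to 1.09, include the values of the 3 called genes. Over the class, H3.1 transcripts summed to 392.9 FPKM in cbe1 and 248.1 FPKM in Col0, a ratio of 1.58 and the highest of the 10 classes.

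The 130 bases before the start of each H3.1 gene are shown because the called and uncalled genes differ in a known histone promoter motif, the octamer CGCGGATC. Sequences are from RefSeq for build TAIR10.1, on the strand of the gene, 5′ to 3′. Capitals mark the motifs searched, here the octamer in the first 3 sequences and CCAACGG, the core of the mitosis-specific activator element, in AT5G10390. The hexamer ACGTCA described below lies upstream of the bases shown in AT5G10400 and AT3G27360. All 5 genes are on the minus strand: AT1G09200 at chr1:2972335-2972464, AT5G65360 at chr5:26120582-26120711, AT5G10400 at chr5:3270958-3271087, AT5G10390 at chr5:3269595-3269724 and AT3G27360 at chr3:10129938-10130067.
AT1G09200: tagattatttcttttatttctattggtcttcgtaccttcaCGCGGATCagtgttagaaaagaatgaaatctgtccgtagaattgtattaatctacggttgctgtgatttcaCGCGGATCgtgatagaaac
AT5G65360: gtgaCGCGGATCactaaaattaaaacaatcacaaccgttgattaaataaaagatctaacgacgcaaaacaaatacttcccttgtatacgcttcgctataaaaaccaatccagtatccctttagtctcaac
AT5G10400: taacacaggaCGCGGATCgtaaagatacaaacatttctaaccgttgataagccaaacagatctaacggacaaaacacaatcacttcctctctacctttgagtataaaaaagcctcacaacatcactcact
AT5G10390: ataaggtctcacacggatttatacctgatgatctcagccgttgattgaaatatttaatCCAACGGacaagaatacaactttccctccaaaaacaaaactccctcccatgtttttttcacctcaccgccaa
AT3G27360: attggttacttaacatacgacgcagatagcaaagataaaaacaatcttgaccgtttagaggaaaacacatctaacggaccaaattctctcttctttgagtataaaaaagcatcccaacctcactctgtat

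The first base of the octamer was 126 bases before the annotated start in AT5G65360 and 120 in AT5G10400. AT1G09200 held 2 copies, which began 90 and 19 bases before its start. All 3 called H3.1 genes had the octamer in the 250 bases before the start, with a median log2 fold change of 0.71, and neither of the other 2 had it, with a median of 0.44. The 3 with the octamer are also the more abundant ones, and the difference between these groups of 3 and 2 genes was not tested. In the H4 and H3.3 classes, given below, the genes with the octamer were not those with the largest changes.

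H3.3 genes, whose product replaces H3 outside replication and is enriched over transcribed genes, were the most abundant H3 transcripts, and none was called. The common H3.3 protein differs from H3.1 by A31T, F41Y, S87H and A90L, with the H3.1 residue first and positions counted from the residue after the initiator methionine. AT4G40040 had 391 FPKM in cbe1 and 329.7 FPKM in Col0, a log2 fold change of 0.25 ± 0.18 (SE). Its neighbour AT4G40030, 42 bases away, had 221 FPKM in cbe1 and 177 FPKM in Col0, a change of 0.33 ± 0.18. AT5G10980 had 165 FPKM in cbe1 and 123 FPKM in Col0, a change of 0.43 ± 0.17, with an unadjusted p of 0.0145 and q = 0.151 in the authors' deposited table. The 3 genes share no 50-base word with another member.

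Within H3, the share of summed FPKM from H3.1 was 33.5% in cbe1 and 28.2% in Col0, and that from H3.3 was 66.2% in cbe1 and 71.4% in Col0. These shares come from group values and have no error, so whether they differ beyond the spread between libraries was not tested. The centromeric H3, HTR12 (CENH3), which marks the site of kinetochore assembly, had 4.29 FPKM in cbe1 and 3.24 FPKM in Col0, a log2 fold change of 0.41 ± 0.45. Its share of H3 was 0.365% in cbe1 and 0.368% in Col0.

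The 8 H4 genes encode a single protein of 103 residues, the partner of every H3. Their log2 fold changes ran from 0.18 to 0.61, with a median of 0.53, and all 8 were above the median gene. One gene was called: AT5G59970, at 82.1 FPKM in cbe1 and 53.7 FPKM in Col0, with a change of 0.61 ± 0.20 (SE) and q = 0.04 in the authors' deposited table. Another 5 had an unadjusted p below 0.05. Over all tested genes, 3.31% were called higher and 12.5% were higher at that unadjusted p. Of the 5 H4 genes, AT3G45930 had 61.8 FPKM in cbe1 and 40.4 FPKM in Col0. Its change was as large as that of AT5G59970 (0.61 ± 0.21), with q = 0.0535 in the deposited table of the authors, just outside the threshold.

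AT3G46320, with 76.9 FPKM in cbe1 and 51.6 FPKM in Col0 (0.58 ± 0.20), is a near copy of AT3G45930: their coding sequences are 97.4% identical, and 247 of the 250 bases before their starts are equal. AT2G28740 had 122 FPKM in cbe1 and 84.3 FPKM in Col0 (0.53 ± 0.19), and AT3G53730 had 139.8 FPKM in cbe1 and 97.4 FPKM in Col0 (0.52 ± 0.18). The most abundant H4 gene, AT5G59690, had 194 FPKM in cbe1 and 147 FPKM in Col0 (0.40 ± 0.18). The smallest changes were those of AT1G07820, with 118 FPKM in cbe1 and 104 FPKM in Col0 (0.18 ± 0.18), and AT1G07660, with 39.6 FPKM in cbe1 and 34.6 FPKM in Col0 (0.20 ± 0.20). Of the 8, 6 share 50-base words with another histone gene, up to 27.9% of the words of a transcript, so the split of H4 reads between copies is uncertain. The H4 sum, which such a split moves less, was 833.8 FPKM in cbe1 and 613.5 FPKM in Col0, a ratio of 1.36.

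**Figure D2:**
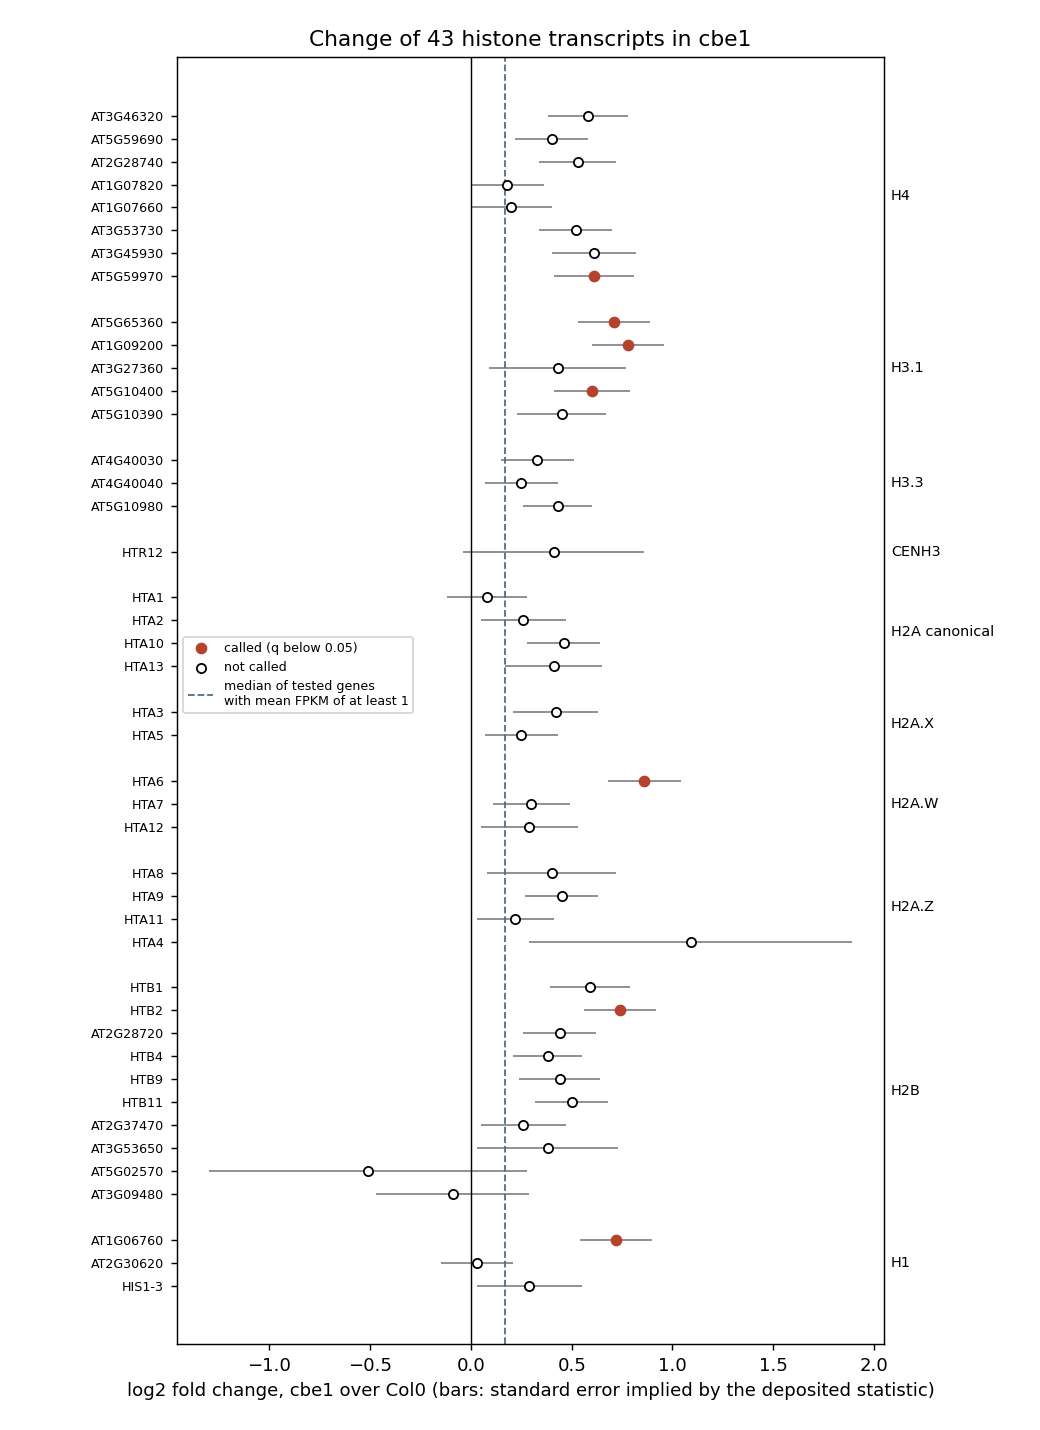
Log2 fold change of each histone gene, cbe1 over Col0, with bars of 1 standard error implied by the deposited statistic, grouped by class; filled points are called, and the dashed line is the median gene at 0.17. The 7 filled points lie between 0.60 and 0.86, and only the 2 H2B genes AT5G02570 and AT3G09480 lie below 0.

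HTA6 (AT5G59870) had the smallest q-value of the 43 genes. It encodes an H2A.W, the H2A variant of heterochromatin. Its level was 87.5 FPKM in cbe1 and 48.2 FPKM in Col0, a log2 fold change of 0.86 ± 0.18 (SE) with q = 0.000347 in the authors' deposited table. Neither of the other H2A.W genes was called: HTA7 had 56.6 FPKM in cbe1 and 46.0 FPKM in Col0 (0.30 ± 0.19), and HTA12 had 20.6 FPKM in cbe1 and 16.9 FPKM in Col0 (0.29 ± 0.24). The proteins of the 3 genes are 62.1% to 74.7% identical, and their transcripts share no 50-base word with another member. The sequence before HTA6 is shown for its octamer and its CCAACGG motif, both in capitals, from chr5:24116221-24116350 on the minus strand of TAIR10.1.
HTA6: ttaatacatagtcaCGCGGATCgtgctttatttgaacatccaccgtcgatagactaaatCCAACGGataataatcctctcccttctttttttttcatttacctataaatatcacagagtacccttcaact

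The other H2A genes were not called. Of the 4 canonical H2A genes, the replicative form, 3 had values above the median gene: HTA10 had 136 FPKM in cbe1 and 99.2 FPKM in Col0 (log2 fold change 0.46 ± 0.18), HTA13 had 62.1 FPKM in cbe1 and 46.6 FPKM in Col0 (0.41 ± 0.24), and HTA2 had 59.4 FPKM in cbe1 and 49.5 FPKM in Col0 (0.26 ± 0.21). HTA1, at 45.3 FPKM in cbe1 and 42.8 FPKM in Col0, stood at 0.08 ± 0.20, below the median gene. HTA3 and HTA5, the H2A.X genes whose product is phosphorylated at DNA breaks, had 31.3 and 80.5 FPKM in cbe1, against 23.4 and 67.6 FPKM in Col0, with changes of 0.42 ± 0.21 and 0.25 ± 0.18.

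H2A.Z is loaded by the SWR1 complex near the start of genes and has roles in transcriptional responses. HTA9 had 175 FPKM in cbe1 and 128 FPKM in Col0, a log2 fold change of 0.45 ± 0.18 with q = 0.136 in the authors' deposited table. HTA11 had 53.5 FPKM in cbe1 and 45.8 FPKM in Col0 (0.22 ± 0.19), and HTA8 had 17.4 FPKM in cbe1 and 13.2 FPKM in Col0 (0.40 ± 0.32). HTA4, the least abundant of all 43, had 1.02 FPKM in cbe1 and 0.48 FPKM in Col0; its change, 1.09 ± 0.80, was the largest by value and carried the largest error. HTA3, HTA4, HTA9, HTA13 and HTB9 share their loci in the deposited table with other genes, at up to 26.7 FPKM in cbe1 and 22.4 FPKM in Col0 (AT3G45970, beside HTB9). Within H2A, the share of summed FPKM was 36.7% in cbe1 and 38% in Col0 for canonical H2A, 13.5% in cbe1 and 14.5% in Col0 for H2A.X, 19.9% in cbe1 and 17.7% in Col0 for H2A.W, and 29.9% in cbe1 and 29.8% in Col0 for H2A.Z.

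**Figure D3:**
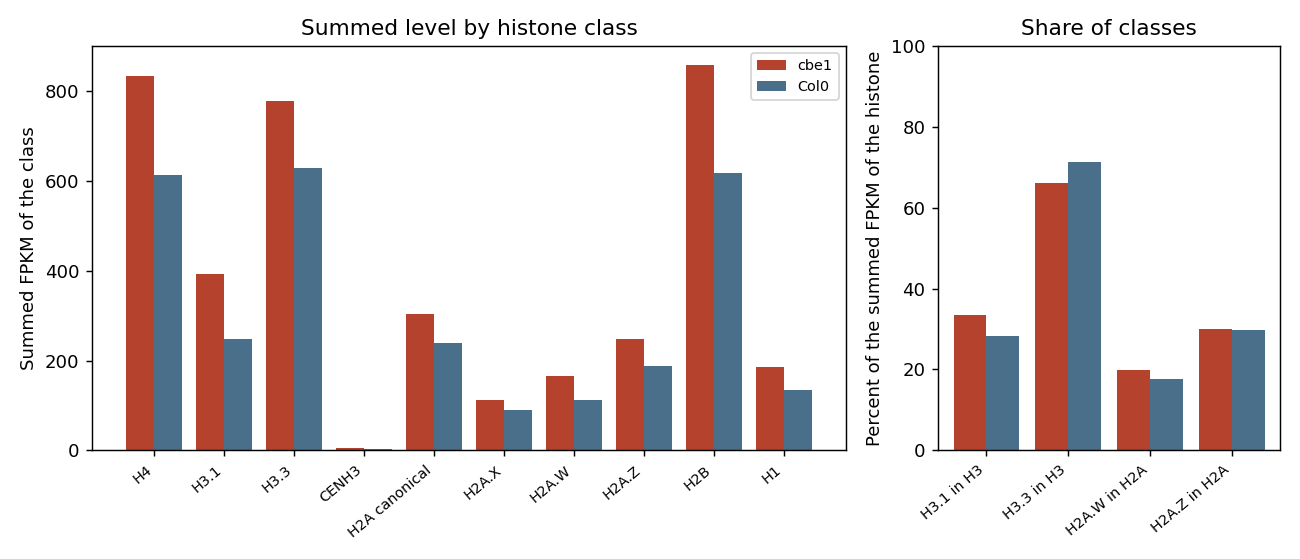
Summed FPKM of each histone class (left panel) and the percentage of the summed FPKM of H3 or H2A held by 4 classes (right panel), with cbe1 to the left of Col0 in each pair of bars; group values have no error bars. Each class sum is higher in cbe1, H3.1 by 1.58-fold and H3.3 by 1.24-fold, and H3.1 makes up 33.5% of H3 in cbe1 and 28.2% in Col0.

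H2B, the partner of H2A, is encoded by 10 of the genes, with 10 different proteins, and is not divided into replicative and variant forms here. HTB2 (AT5G22880) was called, at 149 FPKM in cbe1 and 89.6 FPKM in Col0, a log2 fold change of 0.74 ± 0.18 (SE) with q = 0.00222 in the authors' deposited table. HTB1 had 51.8 FPKM in cbe1 and 34.5 FPKM in Col0, a change of 0.59 ± 0.20 with q = 0.0521 there, and HTB11 had 133 FPKM in cbe1 and 94.5 FPKM in Col0 (0.50 ± 0.18). HTB4, the most abundant, had 212 FPKM in cbe1 and 163 FPKM in Col0 (0.38 ± 0.17), and HTB9 had 159 FPKM in cbe1 and 118 FPKM in Col0 (0.44 ± 0.20).

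The other H2B genes were not called. AT2G28720 had 84.0 FPKM in cbe1 and 62.1 FPKM in Col0 (0.44 ± 0.18), AT2G37470 had 45.6 FPKM in cbe1 and 38.1 FPKM in Col0 (0.26 ± 0.21), and AT3G53650 had 15.3 FPKM in cbe1 and 11.8 FPKM in Col0 (0.38 ± 0.35). The 2 histone genes with a lower value in cbe1 were both H2B genes of low level: AT5G02570, at 1.16 FPKM in cbe1 and 1.65 FPKM in Col0 (-0.51 ± 0.79), and AT3G09480, at 4.94 FPKM in cbe1 and 5.25 FPKM in Col0 (-0.09 ± 0.38). Neither differed beyond its error. H2B transcripts summed to 857.3 FPKM in cbe1 and 618.3 FPKM in Col0, a ratio of 1.39.

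The sequences before 2 H2B genes are shown because most H2B promoters hold the histone hexamer ACGTCA, in capitals, and none holds the octamer. HTB11 is given from chr3:16914132-16914261 and HTB2, whose hexamer begins 195 bases before its start, from chr5:7652715-7652964, both on the minus strand of TAIR10.1.
HTB11: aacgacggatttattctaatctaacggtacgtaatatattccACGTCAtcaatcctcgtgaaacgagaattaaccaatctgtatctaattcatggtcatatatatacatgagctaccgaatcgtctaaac
HTB2: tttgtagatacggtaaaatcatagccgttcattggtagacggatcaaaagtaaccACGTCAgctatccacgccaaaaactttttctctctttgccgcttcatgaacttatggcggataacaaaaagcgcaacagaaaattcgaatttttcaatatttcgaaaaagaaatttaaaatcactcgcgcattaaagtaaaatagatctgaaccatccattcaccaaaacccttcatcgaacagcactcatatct

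Of the 3 linker histone genes, 1 was called higher, where 3.31% of all tested genes were. H1 binds the DNA that enters and leaves the nucleosome. AT1G06760 was called, at 115 FPKM in cbe1 and 69.9 FPKM in Col0, a log2 fold change of 0.72 ± 0.18 (SE) with q = 0.00302 in the authors' deposited table. AT2G30620 was at 46.8 FPKM in cbe1 and 45.7 FPKM in Col0, a change of 0.03 ± 0.18 with a 95% interval of -0.32 to 0.38. HIS1-3 (AT2G18050), a linker histone induced by drought, had 22.8 FPKM in cbe1 and 18.7 FPKM in Col0 (0.29 ± 0.26). AT1G06760 gave 62.3% of H1 transcripts in cbe1 and 52% in Col0. It shares its locus in the deposited table with AT1G06740 (1.16 FPKM in cbe1 and 0.82 FPKM in Col0) and AT1G06750 (0.0929 FPKM in cbe1 and 0.0946 FPKM in Col0), both near 0 beside it. Its octamer, on the opposite strand and so written GATCCGCG, begins 28 bases before the start, as seen in the sequence from chr1:2077768-2077897, minus strand of TAIR10.1.
AT1G06760: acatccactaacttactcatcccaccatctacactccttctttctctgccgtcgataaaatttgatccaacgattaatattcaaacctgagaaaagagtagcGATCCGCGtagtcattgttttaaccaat

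Set side by side, the 17 replicative H4, H3.1 and canonical H2A genes had a median change of 0.46 on the log2 scale. Among them 4 were called higher (23.5%) and 11 were higher at an unadjusted p below 0.05. The 13 variant H3.3, CENH3, H2A.X, H2A.W and H2A.Z genes had a median of 0.40. Among these 1 was called higher (7.69%) and 4 were higher at an unadjusted p below 0.05. Over all tested genes, 3.31% were called higher and 12.5% were higher at that unadjusted p. Replicative transcripts summed to 1530 FPKM in cbe1 and 1100 FPKM in Col0 (1.39-fold), and variant transcripts to 1304 FPKM in cbe1 and 1021 FPKM in Col0 (1.28-fold). The difference between the kinds was not tested.

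Motifs were searched on both strands in the 250 bases before the start of each gene in the RefSeq annotation of TAIR10.1, over 27443 protein-coding genes. A match is a description of these letters and not evidence of a bound factor. Absence of a motif holds for RefSeq starts only. In HTB4, HTA5 and AT3G53730 the RefSeq start lies so far upstream that the 250 bases before the deposited start were not searched. Only exact matches counted. Genes without the octamer thus include some with a sequence that differs from it by 1 base, such as the H4 genes AT5G59970 (TGCGGATC) and AT3G45930 (CCCGGATC). The octamer CGCGGATC stood before 37 genes in all (0.135%), of which 10 were histone genes, or 23.3% of the 43. They were the H4 genes AT5G59690 and AT1G07660, the 3 called H3.1 genes, the H3.3 gene AT4G40040, HTA10 (2 copies), HTA13, HTA6 and the H1 gene AT1G06760. Of the 10, 5 were called higher, where 3.31% of all tested genes were, with a median log2 fold change over the 10 of 0.53. Of the 33 without it, 2 were called (AT5G59970 and HTB2), with a median of 0.41. After recentring on the median gene the counts were 2 of the 10 and 1 of the 33, where 1.33% of all tested genes were called higher. Classes differed in direction. In canonical H2A, H2A.W and H1, as in H3.1, the genes with the octamer had the larger changes. In H4 the genes with it, AT5G59690 (0.40) and AT1G07660 (0.20), were below all those without it except AT1G07820 (0.18). In H3.3 the gene with it, AT4G40040 (0.25), had the smallest change. The 10 with the octamer were all at 39.6 FPKM or more in cbe1 and 34.6 FPKM or more in Col0, while those without it went down to 1.02 FPKM in cbe1 and 0.48 FPKM in Col0, and the difference between the groups was not tested. The 27 other genes with the octamer included 20 tested ones, with a median of 0.35. Of these 20, 1 was called higher, where 3.31% of all tested genes were, and 7 were higher at an unadjusted p below 0.05 in the authors' deposited table, where 12.5% of all tested genes were. None was lower by either rule.

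**Figure D4:**
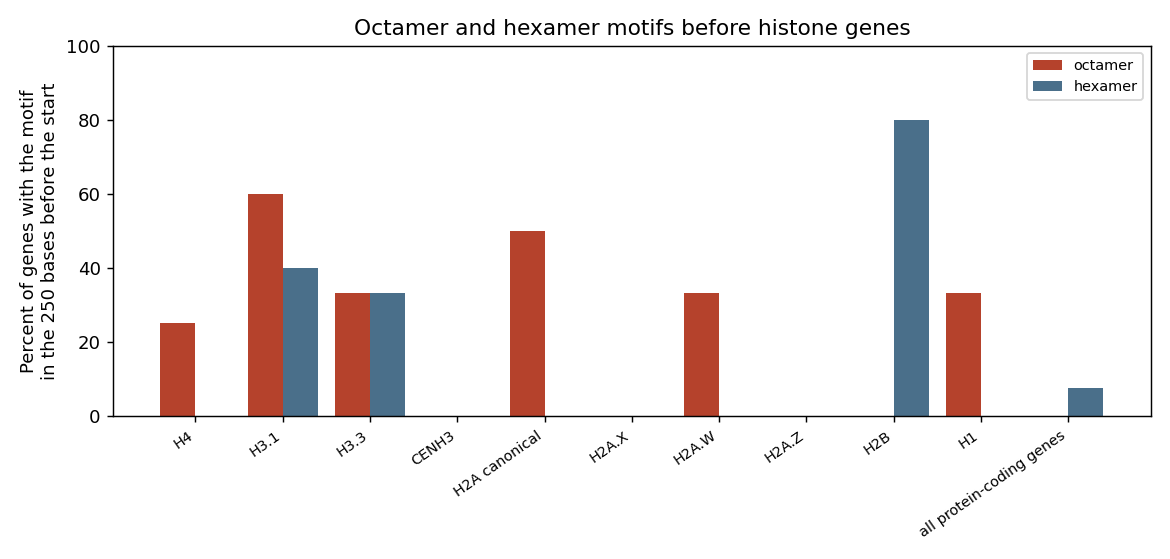
Percentage of genes with the octamer CGCGGATC or the hexamer ACGTCA on either strand in the 250 bases before the start, by histone class and over 27443 protein-coding genes. The octamer stands before 60% of the 5 H3.1 genes and none of the 10 H2B genes, the hexamer before 80% of the H2B genes, and over all genes the shares are 0.135% and 7.69%.

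The hexamer ACGTCA, contained in none of the other motifs, stood before 7.69% of all protein-coding genes and before 11 of the 43 histone genes (25.6%). Of these 11, 8 were H2B genes, all but HTB4 and AT3G09480, and 3 were AT3G27360, AT5G10400 and AT5G10980 (2 copies). The 8 H2B genes with it had a median change of 0.44 on the log2 scale, from -0.51 to 0.74. Among them 1 was called higher, where 3.31% of all tested genes were. The 2 without it had a median of 0.15 and no call. They were the abundant HTB4 (0.38 ± 0.17) and AT3G09480 (-0.09 ± 0.38), which is of low level. HTB4 is 1 of the genes where the bases just before the deposited start were not searched. The difference between these groups of 8 and 2 genes was not tested. Of the E2F sites, TTTCCCGC stood before 0.619% of all genes and no histone gene. TTTGGCGC stood before 0.361% of all genes and before the near copies AT3G46320 and AT3G45930. CCAACGG stood before 1.5% of all genes and before AT5G10390, HTA13 and HTA6.

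Genes that act on histones were also examined. Over all tested genes, 3.31% were called higher and 1.63% lower. Of the 18 histone chaperone and nucleosome assembly genes, none was called. Their median log2 fold change was 0.17, that of the median gene, with 3 higher and 0 lower at an unadjusted p below 0.05 in the authors' deposited table, where 12.5% and 4.20% of all tested genes were. The most abundant were NAP1;2, at 71.0 FPKM in cbe1 and 68.0 FPKM in Col0 (0.06 ± 0.18), and NRP1, at 41.9 FPKM in cbe1 and 37.9 FPKM in Col0 (0.15 ± 0.20), both chaperones of H2A and H2B. Of the 7 genes for deposition of variants, none was called, against the same shares of all tested genes. None of the 7 had an unadjusted p below 0.05 in the authors' deposited table, and their median was also 0.17. The SWR1 complex subunits SWC6, at 10.1 FPKM in cbe1 and 12.9 FPKM in Col0 (-0.35 ± 0.28), and ARP6, at 8.46 FPKM in cbe1 and 6.33 FPKM in Col0 (0.42 ± 0.37), were the most abundant in cbe1.

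Of 6 further H3 and H2B genes outside the 43, only HTR11 was marked as tested. It had 2.52 FPKM in cbe1 and 3.77 FPKM in Col0, a log2 fold change of -0.58 ± 0.44, and was not called.

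Markers of dividing cells stood beside the histones. Of 12 S phase genes, 4 were called higher and none lower, where 3.31% and 1.63% of all tested genes were. Their median log2 fold change was 0.58, with sums of 117.6 FPKM in cbe1 and 78.64 FPKM in Col0 (1.49-fold). The called genes with the largest changes were the replicative helicase subunits MCM5, at 5.82 FPKM in cbe1 and 3.20 FPKM in Col0 (0.86 ± 0.24), and MCM3, at 4.36 FPKM in cbe1 and 2.48 FPKM in Col0 (0.81 ± 0.25), and RNR1, the large subunit of ribonucleotide reductase, at 10.8 FPKM in cbe1 and 6.93 FPKM in Col0 (0.64 ± 0.19). Of 16 genes of G2 and M phase, 10 were called higher and none lower, against the same shares of all tested genes. Their median was 1.16, with sums of 116.4 FPKM in cbe1 and 50.85 FPKM in Col0 (2.29-fold).

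The largest called changes in that list were those of CDC20.2, which activates the ubiquitin ligase of anaphase, at 9.27 FPKM in cbe1 and 3.31 FPKM in Col0 (1.49 ± 0.28), of the cytokinesis microtubule factor PLEIADE, at 3.76 FPKM in cbe1 and 1.40 FPKM in Col0 (1.43 ± 0.29), and of the cytokinesis syntaxin KNOLLE, at 27.9 FPKM in cbe1 and 10.5 FPKM in Col0 (1.41 ± 0.21). No gene of either list was at 0. After recentring on the median gene, 0 S phase and 7 G2 and M phase genes were still called higher, against 1.33% of all tested genes. In whole seedlings a larger number of dividing cells and more RNA per dividing cell cannot be told apart.

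**Figure D5:**
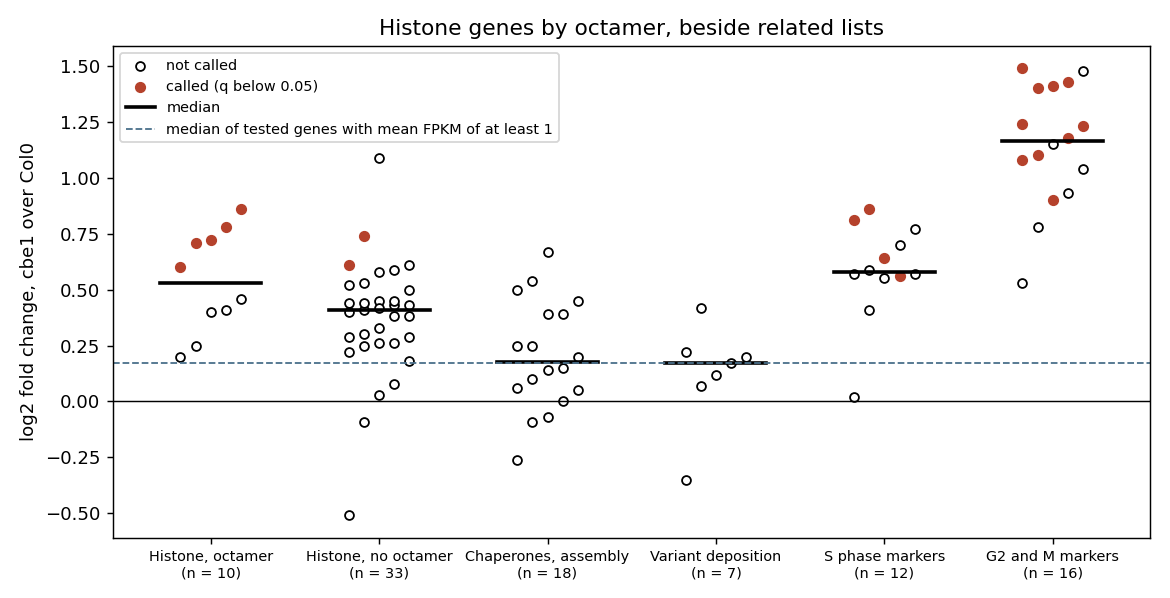
Log2 fold change, cbe1 over Col0, of histone genes with and without the octamer, of chaperone and assembly genes, of variant deposition genes, and of S phase and G2 and M phase genes, with filled points for called genes, a bar at the median of each group and a dashed line at the median gene (0.17). Medians are 0.53 and 0.41 for histone genes with and without the octamer, 0.17 for both chaperone and deposition genes, 0.58 for S phase and 1.16 for G2 and M phase genes.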

How the data were processed

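The authors aligned reads with TopHat on TAIR10 and compared 3 cbe1 with 3 Col0 libraries by Cuffdiff, per the submitters' processing notes. Versions, the treatment of reads with several matches, strand use and scaling between libraries are not given there. For every gene the authors' deposited table gives FPKM for each genotype, with a log2 fold change and the statistic, p-value and q-value of the authors' test. On checking it, the deposited p-value was the normal p of the statistic (differences up to 2.74e-06), and the deposited q-value was a Benjamini-Hochberg adjustment over 22303 tested genes (differences up to 2.46e-06).

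Fold changes are cbe1 over Col0, with no pseudocount added to the FPKM. The deposited statistic had the opposite sign to this change in all 21932 tested genes where both were finite and not 0, so the direction was taken from the FPKM. The implied SE is the size of the change divided by the size of the statistic, and 95% intervals are the change ± 1.96 SE, as far as the authors' error model holds. Without counts or depths in the file no other precision is known. For recentring, the shift was subtracted, the statistic recomputed and p-values adjusted over all tested genes. On simulated data this called 9% of 1.5-fold, 48% of 2-fold and 88% of 4-fold changes, and 0.0046% of unchanged genes. It thus missed most 1.5-fold changes simulated over all tested genes with an SE. The median SE was 0.27 over all tested genes and 0.19 over the 43, and the rate at the SE of the histone genes was not computed. No test over a group of genes was made.

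Members and lists were chosen with earlier results of these data known. All 43 members may be named, and of each other list up to 3 called genes by size of change, otherwise the 2 most abundant. That AT4G01290 is CBE1 was taken from knowledge of the study, since the reference gives it no symbol.

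Deposited coordinates are TAIR10, counted from 1. Sequences and gene starts are RefSeq's on TAIR10.1. Of the 43 members, 2 have the same start and end in both. Distances and the presence or absence of motifs thus hold for RefSeq starts. Proteins and coding sequences were aligned globally, and transcripts compared by shared words of 50 bases. The alternatives were a stricter q-value (0.01), a minimum log2 change of 1, a minimum mean FPKM of 1, pseudocounts of 1 and 0.1, genes alone on their locus, and recentring on the median gene or on summed FPKM. Python 3.11.15, numpy 2.4.6, pandas 2.3.3, scipy 1.17.1, Biopython 1.88 and matplotlib 3.10.9 were used.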

Additional observations from a re-analysis of the deposited data

How the results depend on the processing

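Of the 7 calls, 5 remained at a q-value threshold of 0.01, where AT5G59970 and AT5G10400 were lost. Requiring a log2 fold change of at least 1 left 0, and recentring on the median gene left 3, with AT5G59970, AT5G65360, AT5G10400 and AT1G06760 lost, and turned the signs of the uncalled HTA1 (-0.09) and AT2G30620 (-0.14). Recentring on the summed FPKM of nuclear protein-coding genes gave 42 calls higher and medians of 2.22 (replicative), 2.16 (variant), 2.17 (H2B) and 2.05 (H1), and turned AT5G02570 (1.25) and AT3G09480 (1.67). In that scaling the shift was -1.76 and 88.9% of all tested genes were called higher. That sum was dominated by 1 gene, AT2G01021. The largest value of any tested gene was 742040 FPKM in cbe1 and 4099010 FPKM in Col0. All tested genes summed to 1910357 FPKM in cbe1 and 5647530 FPKM in Col0. An alternative added after seeing the data was the sum over tested nuclear protein-coding genes without AT2G01021. It moved the shift to -0.01 and gave 9 calls, as did a mean of at least 1 FPKM (HTB1 and AT3G45930 added in both). Genes alone on their locus gave 7, with HTB1 added and AT1G06760, which shares its locus, left out. No histone gene was called lower in any of these. In a window of 500 bases, also added after seeing the data, the octamer stood before 10 of the 43 and 0.248% of all genes, the hexamer before 14 and 12.7%. No paired analysis was possible because the file holds only group values, and for the same reason no replicate could be left out. Library depth, which limits the low genes most, is unknown.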
